A study of Mus musculus with 9 samples.

Results

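Fabp7, Fabp5, Fabp3 and Fabp4 encode cytoplasmic fatty acid binding proteins. These genes were followed here in RNA-seq of embryonic mouse forebrain with 1 functional copy of Npas3, which encodes a bHLH-PAS transcription factor. The 4 genes were taken by symbol from the 55401 genes of the deposited table. Of these genes, 3 passed the filter on low counts and Fabp4 did not. Whole forebrain was taken from female embryos at embryonic days 16 to 17. The comparison was between 5 wild-type littermates (Npas3+/+, WT) and 4 heterozygotes (Npas3+/-, HET) that carried a constitutive knockout allele on the C57BL/6J background. Because the knockout was constitutive, every cell lineage of a HET embryo carried it. Embryos are named by genotype and by the embryo number in the labels, and nothing in the labels makes equal numbers a pair. The litter and the exact day of each embryo are not given in the sources used here. The tests treated the embryos as independent. The cell type field of the labels reads astrocytes although the tissue was bulk forebrain. The summed level of 8 astrocyte markers was 394 to 500 CPM (counts per 1000000 counted reads) per embryo, beside 2756 to 3488 CPM for 10 radial glia markers and 5759 to 6425 CPM for 7 neuronal markers, so the libraries held the RNA of several cell types.

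Fatty acid binding proteins are small proteins that hold a long-chain fatty acid inside a beta barrel and carry it through the cytoplasm to membranes, to enzymes or to nuclear receptors of the PPAR family. In the developing brain Fabp7 (also called BLBP) is a classical marker of radial glia, the neural stem cells of the ventricular zone, and it is later made by astrocytes. Fabp5 is found in progenitors, in young neurons and in many other tissues, Fabp3 is the heart and muscle form that is also found in neurons, and Fabp4 is the form of adipocytes and macrophages.

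Npas3 itself was read first. Its level was 36.2 ± 4.18 CPM in WT (SD, n = 5) and 29.5 ± 3.09 CPM in HET (SD, n = 4), with a log2 fold change of -0.30 (SE 0.10) and an adjusted p of 0.877 in edgeR's quasi-likelihood test. HET 7, at 34.1 CPM, lay within the WT range and the other HET embryos lay between 27.8 and 28.2 CPM, below every WT embryo. Counts were summed over the whole gene, and the part of Npas3 that the allele removes was not analysed here. Total counts ran from 42640218 to 62830060 per embryo.

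The promoters of Fabp7 and Fabp3 were matched in RefSeq (GRCm38.p6), 2 of the 4 genes. They are shown because bHLH-PAS proteins bind E-box motifs, and capitals mark the E-boxes (CANNTG, searched on both strands). Each window runs from 250 bases before the annotated start to 50 bases after it. Fabp7 is at chr10:57784673-57784972 on the plus strand and Fabp3 at chr4:130308488-130308787 on the plus strand.
Fabp7: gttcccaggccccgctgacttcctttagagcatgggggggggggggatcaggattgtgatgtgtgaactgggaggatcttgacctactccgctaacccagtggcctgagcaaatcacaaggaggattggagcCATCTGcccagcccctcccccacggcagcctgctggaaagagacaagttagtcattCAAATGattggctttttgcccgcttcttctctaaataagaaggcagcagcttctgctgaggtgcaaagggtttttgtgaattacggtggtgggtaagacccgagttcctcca
Fabp3: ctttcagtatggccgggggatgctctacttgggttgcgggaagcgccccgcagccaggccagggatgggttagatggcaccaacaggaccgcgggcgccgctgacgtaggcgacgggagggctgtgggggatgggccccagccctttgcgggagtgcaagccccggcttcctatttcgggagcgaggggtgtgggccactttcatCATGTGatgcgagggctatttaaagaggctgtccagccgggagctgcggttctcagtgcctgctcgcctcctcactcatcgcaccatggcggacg
The Fabp7 window held 2 E-boxes, CATCTG with its first base at -118 and CAAATG with its first base at -62 relative to the start. The Fabp3 window held 1, CATGTG at -45. At least 1 E-box was present in 72.3% of the 32851 RefSeq promoter windows of this length and at least 2 in 39.6%. The bHLH-PAS core ACGTG, in 19.6% of all windows, and the RBPJ motif GTGGGAA, in 6.38%, were in neither window on either strand. No binding was measured in this experiment, so a match is a description of the letters only.

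Fabp7 was lower in HET forebrain. Its level was 528.0, 593.1, 750.3, 622.3 and 598.9 CPM in WT 5, 15, 16, 41 and 43, and 267.9, 351.3, 360.1 and 386.5 CPM in HET 5, 6, 7 and 24. The groups did not overlap: the highest HET embryo lay below the lowest WT embryo, and HET 5 was the lowest of all. The mean was 618.5 ± 81.5 CPM in WT (SD, n = 5) and 341.5 ± 51.3 CPM in HET (SD, n = 4), which is 55.2% of the WT mean. The log2 fold change was -0.86 (SE 0.12, 95% interval -1.13 to -0.59), with an edgeR adjusted p of 0.0223 over 17818 genes. In that fit 0.14% of all genes passed the threshold of 0.05 in either direction and 0.112% passed it as lower in HET. Every HET embryo lay below every WT embryo for 1.07% of the genes tested. The gene (ENSMUSG00000019874, chr10:57784881-57788450, plus strand, GRCm38) drew 12373 to 39493 counts per embryo, so counting error was small beside the spread between embryos. None of its 50-base words was shared with another annotated transcript and no other gene lay on its exons. In bulk tissue, fewer cells of a type and less RNA per cell cannot be told apart.

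Among the 25 genes that passed the threshold, Fabp7 had the highest mean level over all 9 embryos, at 495 CPM. The next was Tgfb2, a transforming growth factor ligand, at 66.7 CPM. Ordered by unadjusted p, Fabp7 was number 19 of the 17818 genes.

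**Figure D1:**
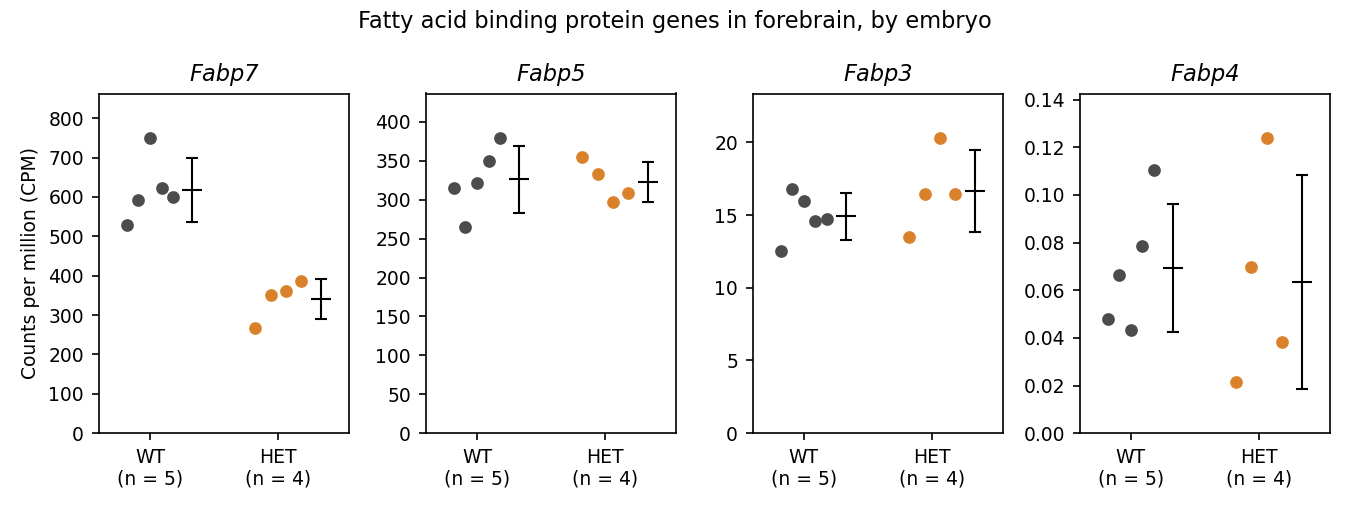
Level of each fatty acid binding protein gene in CPM (vertical axes, each from 0 with its own scale) in every embryo, with WT in grey and HET in orange. Bars beside the points give the mean ± SD. Fabp7 ran from 528.0 to 750.3 CPM in WT and from 267.9 to 386.5 CPM in HET, whereas the groups overlapped for Fabp5, Fabp3 and Fabp4.

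The call depended on which embryos were in the fit. Leaving out 1 embryo at a time kept the log2 fold change between -0.92 and -0.76, and the adjusted p ran from 0.0166 to 0.115 in edgeR. It stayed under 0.05 in 4 of the 9 fits and rose to 0.0573, 0.0676 and 0.0561 without WT 15, WT 41 and WT 43, and to 0.115 and 0.0736 without HET 6 and HET 7.

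Choroid plexus markers differed widely between embryos within each genotype, and 0 of 8 passed the adjusted threshold by edgeR or by DESeq2. By edgeR 6 had an unadjusted p under 0.05, beside 5.42% of all genes. Ttr (transthyretin, the main secreted product of choroid plexus) was at 2127 to 2631 CPM in WT 15, 16 and 41 and at 467 CPM in HET 24, and it was at 0.77 to 11.7 CPM in the other 5 embryos. The summed level of the 8 choroid plexus markers ran from 18 to 2884 CPM in WT and from 27.5 to 529 CPM in HET, and none of the 8 was at 0 in every embryo. Fabp7 averaged 655.2 CPM in the 3 WT embryos with high Ttr and 563.4 CPM in the 2 with low Ttr, against 326.5 CPM in the 3 HET embryos with low Ttr. In those 5 low-Ttr embryos alone the log2 fold change was -0.79 and the edgeR adjusted p was 0.467. When all 9 embryos were kept and the mean log2 CPM of the 8 choroid plexus markers entered the fit, the log2 fold change was -0.76 and the adjusted p was 0.0390. The part of choroid plexus content in the remaining difference was not tested.

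Other markers of radial glia were not called lower in HET. Their summed level was 2846 to 3408 CPM in WT and 2756 to 3488 CPM in HET, and none of the 10 was at 0. By edgeR 0 of the 10 passed the threshold; 1 had an unadjusted p under 0.05, beside 5.42% of all genes, and DESeq2 called 0. The median log2 fold change was 0.00, against 0.00 over all genes tested, and the list's median was -0.11 in the low-Ttr embryos. Vim, an intermediate filament, was at 1008 CPM in WT and 897 CPM in HET (log2 fold change -0.17, SE 0.13), and Nes (nestin) was at 504 and 520 CPM (0.04, SE 0.15). These 2, the neural progenitor factor Pax6 (129 and 141 CPM) and Sox2 (138 and 134 CPM) were named after their values were seen. In the low-Ttr embryos the log2 fold changes of Vim, Nes, Pax6 and Sox2 were -0.29, -0.16, -0.05 and -0.26. The 3 smallest unadjusted p values belonged to Tnc, Slc1a3 and Hes5. Tnc (tenascin C, a matrix protein of radial glia) was at 350.7 ± 54.9 CPM in WT and 431.0 ± 29.3 CPM in HET, with a log2 fold change of 0.30 and an adjusted p of 0.908 in edgeR. Slc1a3 (the glutamate transporter GLAST) was at 284.8 ± 21.8 and 262.7 ± 10.8 CPM. Hes5, a Notch target, was at 46.6 CPM in WT 5 and at 13.5 to 16.3 CPM in the other WT embryos, and at 14.6 ± 1.14 CPM in HET. The low-Ttr log2 fold changes of Tnc, Slc1a3 and Hes5 were 0.34, -0.01 and -1.07.

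Taken as the log2 CPM of Fabp7 less the mean log2 CPM of the 10 radial glia markers, the level was 1.84 ± 0.32 in WT and 0.98 ± 0.38 in HET. The difference was -0.86 and the exact two-sided permutation p was 0.0159, the smallest that 5 against 4 embryos allows. The lowest WT value was 1.32 in WT 5 and the highest HET value was 1.29 in HET 24, so the groups met closely without overlapping. Fabp7 alone did not overlap between the genotypes either, so this exact p is not separate evidence of its difference. In the low-Ttr embryos the difference was -0.68, where the smallest possible exact permutation p is 0.2. Over the 9 embryos, Fabp7 and the marker mean had a Pearson r of -0.28. Once each genotype's mean was subtracted, r was -0.68. Fabp7 thus did not rise with these markers between embryos, and the measure does not give Fabp7 per radial glial cell.

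**Figure D2:**
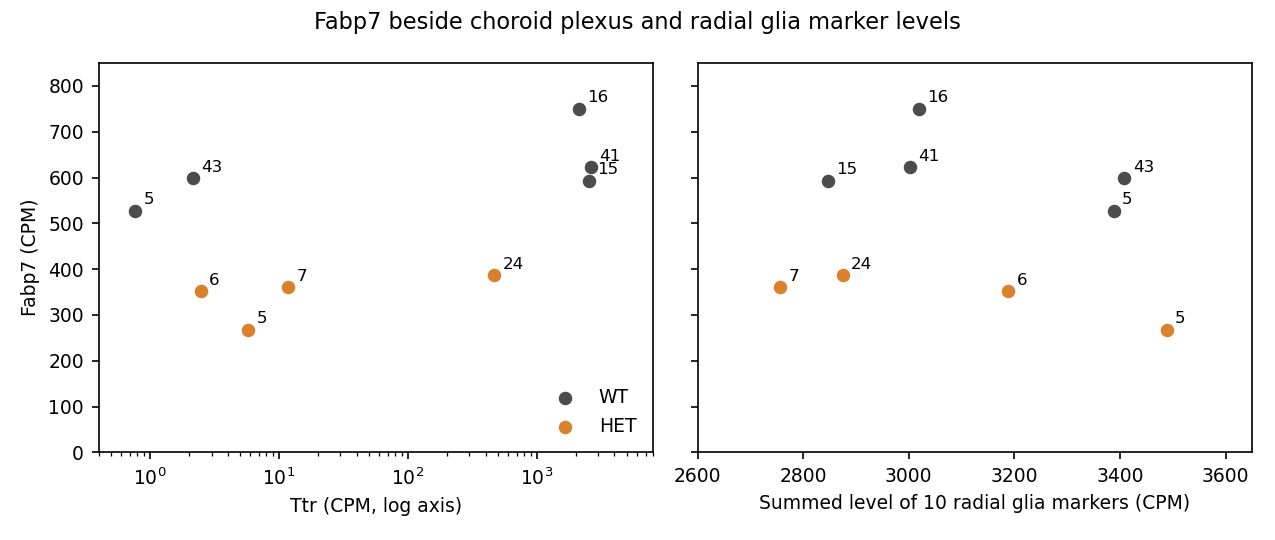
Fabp7 in CPM (vertical axis from 0) against Ttr in CPM on a log axis (left) and against the summed level of the 10 radial glia markers in CPM (right, axis not from 0). Each point is an embryo with its number, WT in grey and HET in orange. The 4 HET embryos lie at 267.9 to 386.5 CPM of Fabp7 and the 5 WT embryos at 528.0 to 750.3 CPM. Among the 5 embryos with Ttr under 100 CPM, the 2 WT embryos also lie above the 3 HET embryos.

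Fabp5 showed no detected difference. Its level was 314.5, 265.3, 321.4, 350.1 and 379.6 CPM in WT 5, 15, 16, 41 and 43, and 354.4, 333.4, 296.9 and 308.7 CPM in HET 5, 6, 7 and 24. The HET embryos lay inside the WT range. The means were 326.2 ± 42.7 and 323.4 ± 25.7 CPM, and the log2 fold change was -0.01 (SE 0.10, edgeR adjusted p 0.988). The 95% interval of -0.23 to 0.21 left out a fall of the size of that of Fabp7. The gene (ENSMUSG00000027533) lies at chr3:10012548-10016607 on the plus strand.

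Fabp5 has processed pseudogenes with which 21.1% of the 50-base words of its coding transcript were shared, so part of its reads may have been counted elsewhere. The closest, Gm6166, held 2311 counts in WT 15 and 2699 in WT 16 but 31 to 51 counts in each of the other 7 embryos. WT 15 was also the embryo with the least Fabp5, at 265.3 CPM. WT 16, which held more Gm6166, was at 321.4 CPM of Fabp5, close to the WT mean. With the counts of Gm6166 added to those of Fabp5, an alternative chosen after seeing the data, the means became 348.6 ± 32.3 CPM in WT and 324.1 ± 25.7 CPM in HET. The log2 fold change was then -0.11 (SE 0.08, edgeR adjusted p 0.912).

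Fabp3 was far less abundant and did not pass the test either. Its level was 12.5, 16.8, 16.0, 14.6 and 14.7 CPM in WT 5, 15, 16, 41 and 43, and 13.5, 16.5, 20.3 and 16.4 CPM in HET 5, 6, 7 and 24. HET 7 was the highest and WT 5 the lowest, and the groups overlapped. The means were 14.9 ± 1.61 and 16.7 ± 2.81 CPM, with a log2 fold change of 0.16 (SE 0.12, 95% interval -0.12 to 0.43, edgeR adjusted p 0.911), and 0.30 in the low-Ttr embryos. The gene (ENSMUSG00000028773, chr4:130308595-130315463, plus strand) is the least certain of the 3 measured ones: Zcchc17 and Gm10570, both on the opposite strand, cover 19.6% of its exonic bases, and 37.3% of its 50-base words occur in other transcripts, 29.2% in the pseudogene Fabp3-ps1. That pseudogene drew 0 to 7 counts per embryo. Whether counting used strand is not given in the sources used here.

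Fabp4 was close to absent. It drew 2, 3, 2, 5 and 5 counts in WT 5, 15, 16, 41 and 43, and 1, 3, 6 and 2 counts in HET 5, 6, 7 and 24. The pooled 12 HET and 17 WT counts gave a HET to WT ratio per read of 0.896 with an exact 95% interval of 0.390 to 1.99, which covers counting error only, so no difference was detectable at this depth. Fabp4 (ENSMUSG00000062515, chr3:10204088-10208576, minus strand) lies 187480 bases beyond the end of Fabp5 on chromosome 3, and the 2 genes differed by several orders of magnitude in level. The adipocyte markers Adipoq, Plin1, Lep and Cidec summed to 0.0433 to 0.173 CPM per embryo.

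Levels were compared between genes per kilobase of the longest coding transcript. In WT, Fabp7 was at 703 ± 92.7 CPM per kb, Fabp5 at 330.5 ± 43.2, Fabp3 at 18.1 ± 1.96 and Fabp4 at 0.0775 ± 0.0301. In HET the corresponding levels were 388 ± 58.3, 327.6 ± 26, 20.3 ± 3.41 and 0.0708 ± 0.0503 CPM per kb. In WT the order was Fabp7, Fabp5, Fabp3, Fabp4 in every embryo, without overlap between neighbours. In HET the ranges of Fabp7 and Fabp5 overlapped, and in HET 5 Fabp5 stood above Fabp7 at 359 against 304 CPM per kb. Fabp7 was number 37 of 17804 genes by mean level per kb in WT and number 93 in HET, while Fabp5 was number 113 and number 111.

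The summed level of the 4 genes was 1052 ± 106 CPM per kb in WT and 736 ± 40.3 in HET. Fabp7 made up 66.7% ± 3.65 of that sum in WT and 52.5% ± 5.45 in HET, and Fabp5 made up 31.5% ± 3.75 and 44.7% ± 5.70. The Fabp7 to Fabp5 ratio per kb ran from 1.77 to 2.62 in WT and from 0.848 to 1.40 in HET. These shares depend on gene length: over all annotated exonic bases, which for Fabp5 include a retained intron, Fabp7 made up 81.8% in WT and 70.8% in HET and lay above Fabp5 in HET 5 too.

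**Figure D3:**
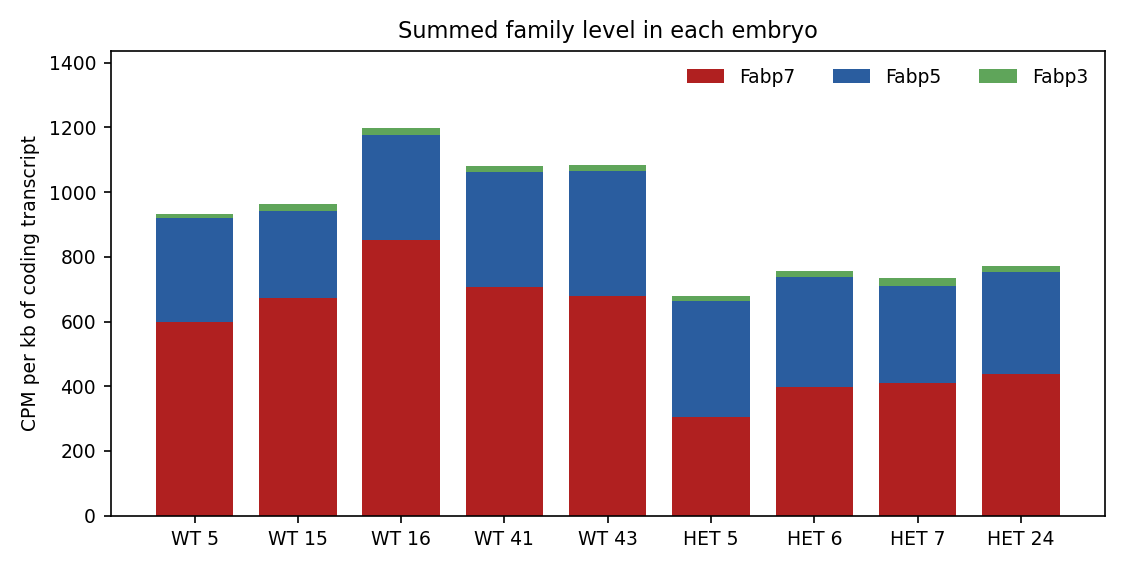
Summed level of Fabp7, Fabp5 and Fabp3 in CPM per kilobase of the longest coding transcript (vertical axis from 0), stacked for each embryo. Fabp4 is left out because at under 0.14 CPM per kb it would not be visible. The red Fabp7 segment is shorter in the 4 HET embryos (304 to 439) than in the 5 WT embryos (600 to 853), while the blue Fabp5 segment spans 301 to 359 in HET and 269 to 385 in WT.

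The difference between the genes was itself tested. Fabp7 less Fabp5, in log2 CPM, was 0.92 ± 0.25 in WT and 0.07 ± 0.33 in HET, a difference of -0.85. Fabp7 less Fabp3 was 5.32 ± 0.15 and 4.32 ± 0.17, a difference of -1.01. Both had an exact two-sided permutation p of 0.0159, also after Benjamini-Hochberg adjustment over the 2 pairs, which is the smallest value the design allows. Neither measure overlapped between the genotypes. Fabp7 alone did not overlap between them either, so these p values are not separate evidence of its difference. In the 5 low-Ttr embryos the differences were -0.72 and -1.07.

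The proteins encoded by the 4 genes are of like size, with reading frames of 132, 135, 133 and 132 codons for Fabp7, Fabp5, Fabp3 and Fabp4, stop codons left out. In coding sequence Fabp7 was closest to Fabp3 (66.4% identical bases in a global alignment), then to Fabp4 (61.9%) and Fabp5 (55.4%). The Fabp7 and Fabp5 pair, the most abundant genes of the 4, was the least alike of the 6 pairs, which ran from 55.4% to 66.4%.

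The rest of the intracellular lipid binding protein family was little expressed. Of 11 further members, 3 passed the filter and 0 passed the test by edgeR, with 0 called by DESeq2. By edgeR 0 had an unadjusted p under 0.05, beside 5.42% of all genes. The retinoic acid binding proteins Crabp1 and Crabp2 were at 6.25 ± 1.86 and 2.39 ± 0.815 CPM in WT and at 8.22 ± 2.71 and 1.83 ± 0.244 CPM in HET. Their log2 fold changes were 0.40 and -0.39, each with overlapping groups. Fabp1, Fabp6, Fabp9 and Pmp2, the liver, ileal, testis and myelin forms, had 0 counts in all embryos.

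Factors known to act upstream of Fabp7 in radial glia were then read, among them Notch receptors and RBPJ, POU and PBX factors, nuclear factor I proteins and the neuregulin receptors. All 16 were measured, and 0 passed the threshold by edgeR and 0 by DESeq2. By edgeR 2 had an unadjusted p under 0.05, beside 5.42% of all genes. The median log2 fold change was 0.07, and -0.14 in the low-Ttr embryos. Erbb4, a neuregulin receptor, was at 58.0 ± 13.3 CPM in WT and 44.1 ± 6.21 CPM in HET (log2 fold change -0.40, adjusted p 0.908 in edgeR). Nfix and Nfib, nuclear factor I genes, were at 994 ± 199 and 1385 ± 269 CPM in WT and at 1219 ± 76.9 and 1622 ± 129 CPM in HET, with log2 fold changes of 0.29 and 0.23 that were 0.04 and 0.03 in the low-Ttr embryos. Rbpj itself was at 88.0 CPM in WT and 85.5 CPM in HET, named after its values were seen.

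Genes that act beside or after the binding proteins showed no called change. Of the nuclear receptors for fatty acids and retinoids, 8 of 9 were tested and 0 passed by edgeR, with 2 at an unadjusted p under 0.05. Rara, a retinoic acid receptor, was at 8.69 ± 0.791 CPM in WT and 10.1 ± 0.472 CPM in HET, Rxrg, a retinoid X receptor, at 1.52 ± 0.343 and 2.05 ± 0.345 CPM, and Rarb at 0.620 ± 0.225 and 0.392 ± 0.136 CPM. Of PPAR target genes, 9 of 10 were tested and 0 passed by edgeR, with 2 at an unadjusted p under 0.05. All 9 had a log2 fold change below 0, with a median of -0.15, but in the low-Ttr embryos the median was 0.04. Cpt1a, which admits fatty acids to mitochondria, was at 48.9 ± 3.21 CPM in WT and 41 ± 5.83 CPM in HET. DESeq2 called 0 genes of either list. Over all genes tested, 5.42% had an unadjusted edgeR p under 0.05.

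In fatty acid uptake and activation, 16 of 17 genes were tested, 0 passed by edgeR and 1 had an unadjusted p under 0.05. That gene, Acsbg1, an acyl-CoA synthetase of glia and steroidogenic tissue, was at 11.6 ± 1.23 CPM in WT and 8.30 ± 1.64 CPM in HET without overlap (log2 fold change -0.48, adjusted p 0.671 in edgeR, -0.41 in the low-Ttr embryos). Acsl4 and Slc27a4, which also activate fatty acids, were at 25.5 ± 3.38 and 74.4 ± 0.724 CPM in WT and at 28.5 ± 1.45 and 78.6 ± 5.01 CPM in HET. In fatty acid synthesis, elongation and desaturation 17 of 18 were tested, 0 passed by edgeR and 1 had an unadjusted p under 0.05. This was the elongase Elovl7, at 2.93 ± 1.82 and 1.26 ± 0.576 CPM, with a log2 fold change of -1.22 that was 0.22 in the low-Ttr embryos. The desaturase Fads1 and the elongase Elovl6 had log2 fold changes of 0.09 and 0.11. In triglyceride storage and lipolysis 10 of 11 were tested, 0 passed by edgeR and 0 had an unadjusted p under 0.05. The lipid droplet coat gene Plin3 was at 14.2 ± 1.48 and 12.4 ± 1.13 CPM, Plin5 at 0.346 ± 0.131 and 0.272 ± 0.0845 CPM, and the lipase activator Abhd5 at 16.1 ± 1.33 and 16.9 ± 1.21 CPM. The medians of these 3 lists were 0.04, 0.04 and -0.02. DESeq2 called 0 genes of the 3 lists. Over all genes tested, 5.42% had an unadjusted edgeR p under 0.05.

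**Figure D4:**
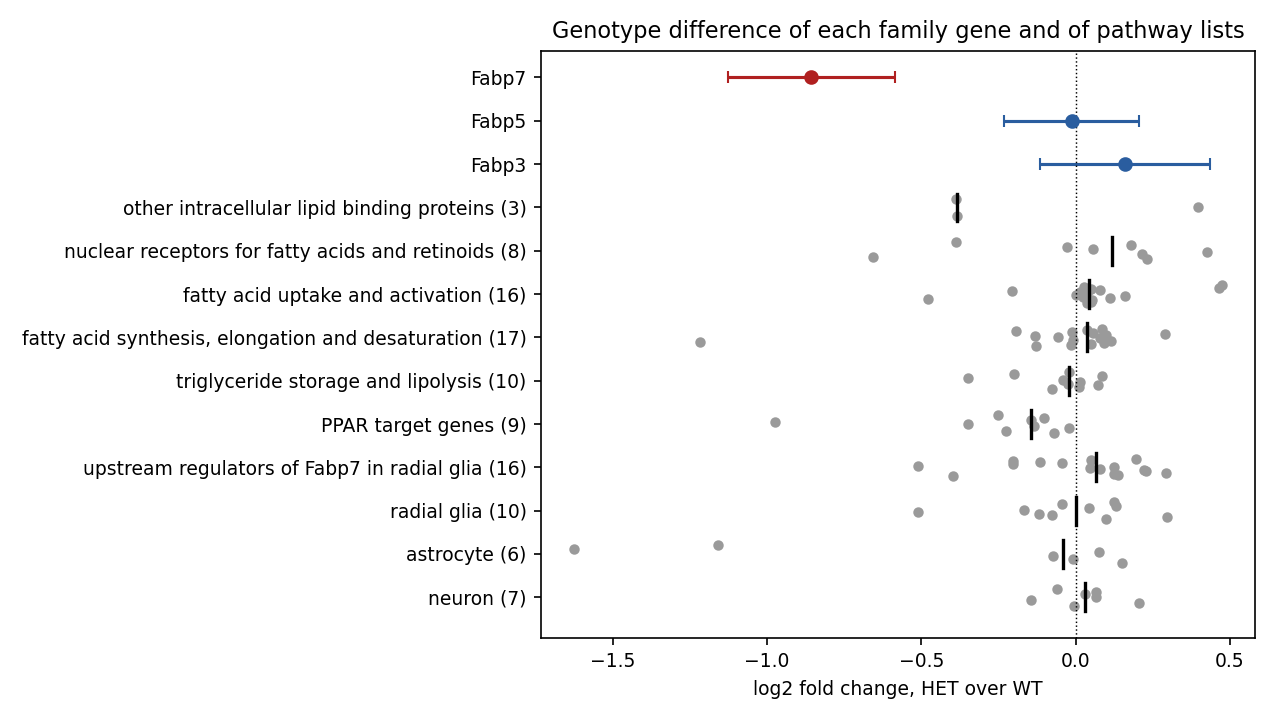
Log2 fold change of HET over WT (horizontal axis) from the edgeR fit of all 9 embryos. Fabp7, Fabp5 and Fabp3 are drawn with 95% intervals, with Fabp7, past the adjusted threshold, in red. Each grey point below is a tested gene of the named list, with the number tested in parentheses and a black bar at the median. Fabp7 lies at -0.86, and the list medians lie between -0.39 and 0.12.

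Markers of astrocytes, where Fabp7 is also made, gave a mixed reading. Of 8 genes, 6 were tested, 0 passed by edgeR and 2 had an unadjusted p under 0.05, beside 5.42% of all genes. Aqp4, the astrocyte water channel, was at 1.48 ± 0.317 CPM in WT and 0.475 ± 0.415 CPM in HET without overlap (log2 fold change -1.63, edgeR adjusted p 0.555), and DESeq2 called it. Aldh1l1, a folate enzyme, was at 22.1 ± 6.71 and 9.89 ± 6.47 CPM (log2 fold change -1.16, edgeR adjusted p 0.904), and Aldoc, brain aldolase, at 188.4 ± 21.3 and 209.2 ± 33.7 CPM. For Aldoc, Gfap, Slc1a2 and Gja1, the other tested markers, the log2 fold changes were 0.15, 0.08, -0.07 and -0.01. Gfap, Slc1a2 and Gja1 were named after their values were seen. Over the 6 tested genes the median was -0.04, and -0.05 in the low-Ttr embryos. In the low-Ttr embryos the log2 fold changes of Aqp4 and Aldh1l1 were -1.47 and -1.0. Their part in the Fabp7 difference was not tested.

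Over the 9 embryos, the 5 genes whose log2 CPM was most like that of Fabp7, among 14372 genes with a mean of at least 1 CPM, were Npas1 (Pearson r 0.967), Mt3 (0.962), Snapin (0.961), Bbs2 (0.957) and Slc25a18 (0.943). Npas1 encodes another bHLH-PAS factor, Mt3 a brain metallothionein and Slc25a18 a mitochondrial glutamate carrier. These values share the genotype difference. Once each genotype's mean was subtracted, the 5 most alike were Spata24 (0.991), Mrpl48 (0.972), Maip1 (0.958), Nudt16 (0.951) and Kptn (0.949). For Fabp5 they were Zfp456 (0.919), Syde2, Inip, Wnt7a and Pinx1 (0.892), and after subtraction Syde2 (0.953), Dph5, Wnt7a, Zfp456 and Inip (0.908). For Fabp3 they were Mb21d2 (0.968), Ptprr, Spryd3, Gm10419 and Nts (0.941), and after subtraction Nanos3 (0.993), Cxcl14, Ptprr, Mb21d2 and Gda (0.955). Each r is over the same 9 libraries and describes them only. Between Fabp7 and Fabp5 r was -0.07, and -0.22 after subtraction.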

How the data were processed

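Polyadenylated RNA of each forebrain was made into TruSeq libraries and sequenced on an Illumina HiSeq. Per the study's methods and the labels, the authors aligned 1 read of each pair with STAR 2.7.9a to GRCm38.p6 and deposited raw counts per gene from featureCounts. Settings for strand and for multiply mapped reads are not given in the sources used here. The deposited counts were tested with edgeR 4.0.16 (R 4.3.3; TMM scaling, filterByExpr with a minimum count of 10, quasi-likelihood test, Benjamini-Hochberg adjustment over 17818 genes). CPM use TMM-scaled library sizes, and 0.5 CPM was added before log2. Alternatives were DESeq2 1.42.0, limma-voom 3.58.1, other scalings and filters, a choroid plexus covariate, the 5 embryos under 100 CPM of Ttr and leaving out each embryo. The fits were tested on simulated data. Differences between genes used scipy 1.17.1 (exact permutation). Exons and transcript lengths came from GENCODE M21 (GRCm38), which lists 55141 of the table's identifiers. The study's methods name a later GENCODE release for its reads, so the gene models used for counting may differ.

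The 4 genes and all lists were chosen with earlier results of these data known. Named genes are the 4 genes, Npas3, up to 3 genes of the lowest unadjusted p in each list and the 5 most correlated genes; others are marked as named after their values were seen. Some genes of the lists are counted in them but not reported here by name.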

Additional observations from a re-analysis of the deposited data

Results flagged for a closer look

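Of 40 groups of 4 or 5 embryos in which the highest or lowest value was compared with the rest by Dixon's criterion, 2 held a value that stood apart. Chance gives about 1 in 20 such groups, here 2.0. Npas3 was at 34.1 CPM in HET 7, against 27.8 to 28.2 CPM in the other HET embryos. The mean log2 CPM of 6 forebrain markers was 7.43 in WT 5, against 6.66 to 6.79 in the other WT embryos. No value of Fabp7, Fabp5, Fabp3 or Fabp4 stood apart in this way.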

How the results depend on the processing

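Fabp7 was lower in HET under all 17 alternatives run. Its adjusted p was 4.37e-08 by DESeq2, 0.0216 by limma-voom and 0.0357 with upper-quartile scaling. It missed the threshold in the low-Ttr embryos (log2 fold change -0.79; 2 WT, 3 HET) and in 5 fits that left out 1 embryo, over which the change ran from -0.92 to -0.76. Fabp5 changed sign in 4 of the fits that left out 1 embryo (range -0.076 to 0.054) and passed no test. Fabp3 kept its sign and passed no test. Fabp4 could not be fitted after the filter, so Fabp7 was not compared with it.

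The 25 genes called became 84 by DESeq2, 15 in the low-Ttr embryos and 14 to 23 without 1 embryo. In the low-Ttr embryos the differences of Fabp7 from Fabp5, Fabp3 and the radial glia markers were -0.72, -1.07 and -0.68, and an exact test of 2 against 3 cannot reach 0.05. No paired analysis was possible because nothing in the labels ties a WT embryo to a HET embryo, and only number 5 occurs in both genotypes.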

Other observations

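Markers of other cell types were read as context for the family in bulk tissue. By edgeR 0 markers of any of these lists passed the adjusted threshold, and the counts at an unadjusted p under 0.05 were 2 of 5 for oligodendrocyte precursors, 0 of 7 for neurons, 2 of 7 for endothelium, 0 of 7 for microglia, 0 of 5 for meninges, 6 of 8 for choroid plexus, 0 of 6 for red blood cells, 0 of 6 for forebrain identity and 1 of 4 for striated muscle. DESeq2 called 0 of them. Over all genes tested, 5.42% had an unadjusted edgeR p under 0.05. Olig1 and Sox10, transcription factors of the oligodendrocyte lineage, were at 12.6 ± 3.51 and 1.07 ± 0.238 CPM in WT (n = 5) and at 19.4 ± 3.70 and 1.71 ± 0.498 CPM in HET (n = 4). Their log2 fold changes were 0.63 and 0.67, and 0.61 and 0.67 in the low-Ttr embryos. Of the other markers of that list, Pdgfra had a log2 fold change of -0.58 (0.47 in the low-Ttr embryos), Olig2 of 0.19 (SE 0.32; -0.20 in the low-Ttr embryos) and Cspg4 of 0.25; Pdgfra and Olig2 were named after their values were seen. Kdr and Pecam1, endothelial genes, had log2 fold changes of -0.31 and -0.21, and -0.10 and -0.06 in the low-Ttr embryos. The median of the choroid plexus list was -3.12, and 0.68 in the low-Ttr embryos.

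Gm6166, the processed pseudogene most like Fabp5, was at 51.1 CPM in WT 15 and 58.7 CPM in WT 16 and at 0.614 to 1.13 CPM in the other 7 embryos, so it split the WT group and not the genotypes.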
